A study of Mus musculus with 6 samples.

Results

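The 39 genes described here encode proteins that carry glucose into the cell, break it down to pyruvate, and exchange pyruvate with lactate. Others of the 39 encode subunits of pyruvate dehydrogenase, which oxidises pyruvate in the mitochondrion, or the kinases that switch it off. Hif1a, the oxygen-regulated transcription factor gene known to act on many of these genes, is included. The 39 genes were chosen by name for their place in this pathway, and all were found among the 24495 gene symbols counted. A minimum on counts left 14855 symbols to test, among them 37 of the 39. Pgk2 and Eno1 fell under that minimum. RNA came from spermatogonial stem cells (SSCs), the cells that renew the male germline, isolated from DBA2 mouse testes at postnatal days 5 to 8 and grown in culture. Cultures were given for 2 weeks either 2 uM EPZ5676 (pinometostat), an inhibitor of the histone methyltransferase DOT1L, or its vehicle, 0.2% ethanol. The comparison asks which transcripts differ when DOT1L is inhibited. Each group had 3 libraries, called biological triplicates in the study's design. Neither the feeder cells and medium of the cultures nor the number of animals behind each library are given in the sources used here, so p-values measure the spread between these libraries.

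Glycolysis splits glucose into pyruvate in the cytosol. Pyruvate is then either reduced to lactate and exported, or oxidised by pyruvate dehydrogenase in the mitochondrion, a step that the pyruvate dehydrogenase kinases switch off. Cultured SSCs are known for a strongly glycolytic metabolism. Later germ cells replace several enzymes of glycolysis and of pyruvate use with testis forms, some of them made from retrogenes that lack introns, such as Pgk2 and Pdha2.

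Gene counts totalled 19866337 to 54645903 per EPZ5676 library and 17784332 to 21046473 per ethanol library. Markers of undifferentiated spermatogonia were present, with 16 of 17 at a mean of at least 1 CPM (library-size-scaled counts, here normalised by TMM). Their summed levels were 4011 to 4133 CPM with EPZ5676 and 3835 to 4257 CPM with ethanol. That list included the germ cell genes Ddx4 and Dazl, and Thy1, which is on the fibroblast list too. Its sum is therefore not a level of undifferentiated cells alone. Fibroblast markers were present as well, 15 of 15 at a mean of at least 1 CPM. Their sum was 794, 1247 and 825 CPM in EPZ5676 replicates 1, 2 and 3 and 872, 1596 and 949 CPM in ethanol replicates 1, 2 and 3, highest in replicate 2 of each group. Sertoli markers summed to 32.5 to 40.4 CPM with EPZ5676 and 33.6 to 47.1 CPM with ethanol. Leydig markers, of which 1 of 6 averaged at least 1 CPM, summed to 6.03, 5.52 and 6.87 CPM with EPZ5676 and 8.14, 10.4 and 7.93 CPM with ethanol, so the groups did not overlap. Lhcgr, the receptor gene on that list, had 0 counts in every library. The part of these markers in the results was not tested. In bulk RNA, a change in the share of a cell type and a change in RNA per cell cannot be told apart. Replicate 2 was also compared with replicates 1 and 3 of the same group over the 37 tested genes. In replicate 2 of both groups 14 genes were lower and 10 were higher, and for 13 the direction differed between the groups. That count was not made over all genes.

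Levels between genes are compared as CPM per kilobase of exon, the CPM divided by the length of a gene's annotated exons, and average over the 6 libraries unless a group is named. They spanned 379 CPM per kilobase for Pkm down to 0.0538 for Eno1. Pkm, the pyruvate kinase gene, was followed by Aldoa (aldolase) at 205 and Gpi1 (glucose phosphate isomerase) at 161. Next came Ldha (lactate dehydrogenase) at 71.3, Pdhb (the beta subunit of pyruvate dehydrogenase) at 68.3, Pdk1 at 60.9, Tpi1 (triose phosphate isomerase) at 49.6 and Slc2a1, the main glucose transporter, at 43.4. At the low end stood Slc2a4 at 0.721, Pdk4 at 0.583, Hk3 at 0.161, Pgk2 at 0.0644 and Eno1 at 0.0538. Neighbours in this order at similar levels, such as Ldha and Pdhb, or Slc2a4 and Pdk4, lie within each other's spread over libraries, as the plot of levels by library shows.

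**Figure D1:**
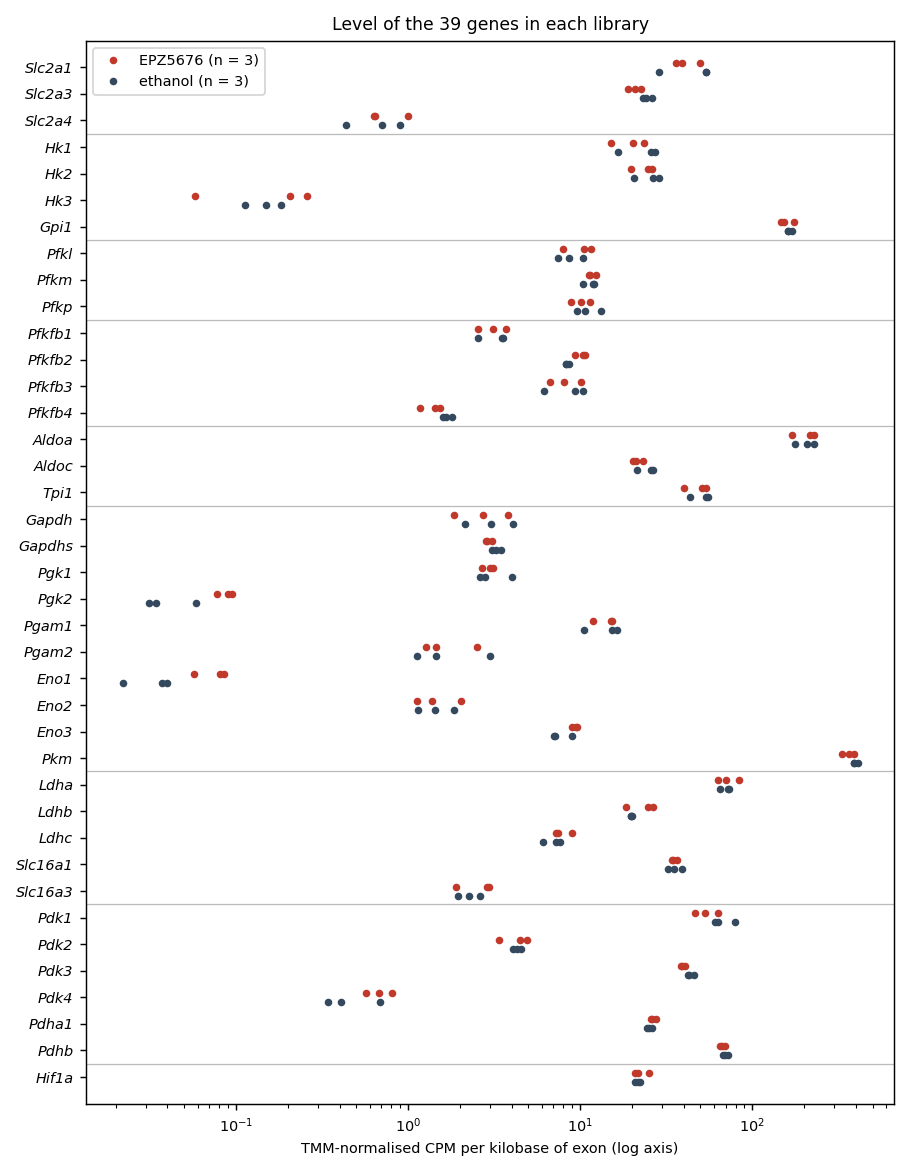
Level of each of the 39 genes in each library, in TMM-normalised CPM per kilobase of exon on a log axis, with EPZ5676 libraries (n = 3) in red above ethanol libraries (n = 3) in dark blue. Grey lines separate the steps of the pathway. Pkm, Aldoa and Gpi1 lie highest and Pgk2 and Eno1 lowest, and for most genes the 2 sets of points overlap.

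Several housekeeping enzymes of the last steps of glycolysis were counted at low levels. Gapdh, the glyceraldehyde phosphate dehydrogenase commonly used as an abundant control transcript, averaged 2.94 CPM per kilobase, Pgk1 (phosphoglycerate kinase) 3.04 and Pgam1 (phosphoglycerate mutase) 14.1. Several such genes have processed pseudogenes or retrocopies in the mouse genome. In the GENCODE M21 annotation, 55.5% of the 75-base stretches of Gapdh coding transcripts were also found at another annotated locus, among them 114 pseudogenes. The share was 67.5% for Pgk1, 44.3% for Eno1 and 40.6% for Pgam1. Over 20245 matched symbols the median share was 0%, and 3.92% of symbols reached 40%. By contrast Pkm stood at 9.23%, Gpi1 at 9.56% and Aldoa at 0.902%, and the share was 0% for Pdk1, Slc2a1, Hk1 and Hk2. How reads with several possible origins were counted is not given in the sources used here, and its part in these levels was not tested. Eno1b, an annotated retrocopy locus of Eno1, averaged 54.6 ± 16.9 CPM with EPZ5676 and 49.7 ± 4.36 CPM with ethanol (n = 3, ± SD), and 80.6% of its stretches were shared. Levels of Gapdh, Pgk1, Pgam1 and Eno1 are therefore uncertain as gene levels. The stretch of Gapdh found in the most pseudogenes, 47, is shown because a read from it cannot be assigned by sequence alone. It covers coding bases 415 to 489 of the gene on chromosome 6, and no base is capitalised because every base is shared.
Gapdh: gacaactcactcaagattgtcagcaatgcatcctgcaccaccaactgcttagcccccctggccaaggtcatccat

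**Figure D2:**
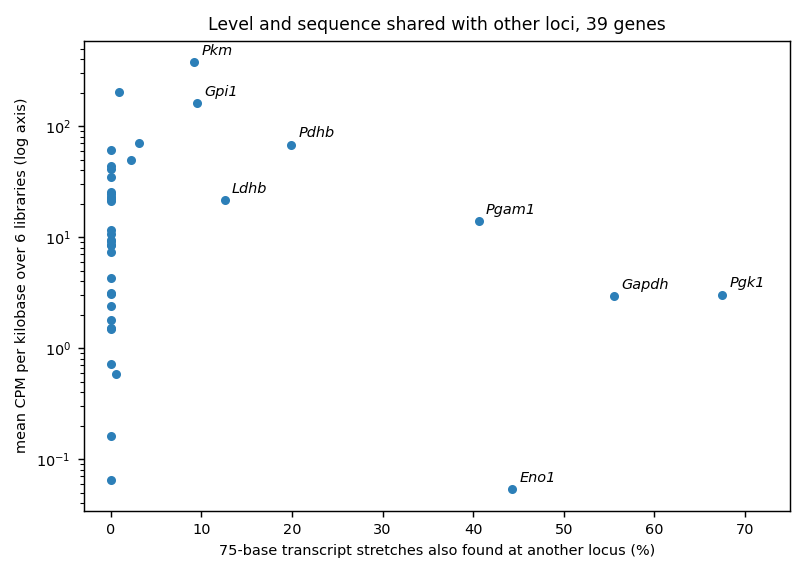
Mean level over the 6 libraries in TMM-normalised CPM per kilobase on a log axis, against the percentage of 75-base coding-transcript stretches that also occur at another annotated locus, for the 39 genes. Gapdh, Pgk1, Eno1 and Pgam1 are the 4 genes past 40%, and genes at 0% span the range of levels.

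Across the whole pathway, differences between EPZ5676 and ethanol were small. With no block for the replicate number, the quasi-likelihood test of edgeR, adjusted by Benjamini-Hochberg over all genes, called 0 of the 37 tested genes, against 0% of all 14855 genes in either direction. At an unadjusted p under 0.05 it gave 1 gene higher, Pfkfb2, and 2 lower, Slc2a3 and Pdk1, where 3.84% of all genes were higher and 3.57% lower. DESeq2 called 0 members, against 0.148% of all genes higher and 0.188% lower, and limma-voom 0, against 0%. Both gave Pfkfb2 higher and Slc2a3 and Pdk1 lower at an unadjusted p under 0.05. The background at that level was 3.45% higher and 3.3% lower in DESeq2, and 3.78% and 3.77% in limma-voom. With the replicate block, 1 member was called, Pdk1, which was lower, against 0.323% of all genes called higher and 0.33% lower. At an unadjusted p under 0.05 in the blocked edgeR fit, 3 members were higher (Pfkl, Pfkfb2 and Eno3) and 5 lower (Slc2a3, Hk1, Aldoc, Pdk1 and Pdk3), against 9.01% and 9.51% of all genes. Log2 fold changes of the 37 members had a median of -0.03 and ran from -0.32 to 0.51, with 22 negative and 15 positive. The median over all genes tested was -0.01. The median size regardless of sign was 0.13 for the members and 0.12 for all genes, and 35 of the 37 lay within 0.3 of 0. Within replicate pairs, 4 members (10.8%) were higher with EPZ5676 in all 3 pairs and 12 (32.4%) lower, against 19.5% and 22.3% of all genes. Groups did not overlap for Pfkfb2 and Eno3, which were higher, and for Slc2a3, Pfkfb4, Gapdhs and Pdk3, which were lower, where 7.22% and 7.64% of all genes did not overlap in those directions.

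**Figure D3:**
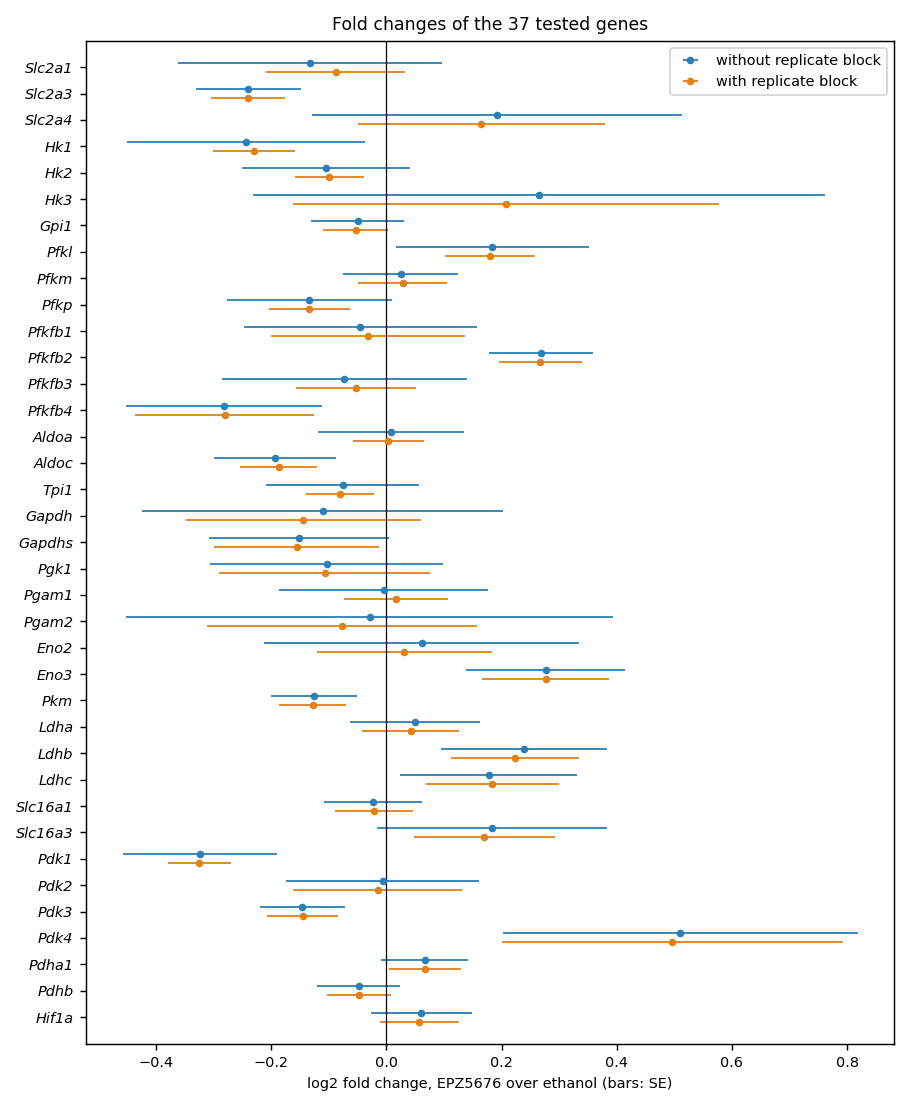
Log2 fold change of the 37 tested genes, EPZ5676 over ethanol, from edgeR without (blue) and with (orange) the replicate block, with bars for the SE. Values ran from -0.32 for Pdk1 to 0.51 for Pdk4, and Pdk1 with the block is the 1 point that passed the adjusted threshold.

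Pdk1, which encodes a kinase that switches off pyruvate dehydrogenase, fell with EPZ5676 in the blocked fit. It had 327, 240.4 and 275 CPM in EPZ5676 replicates 1, 2 and 3, and 409, 316 and 328 CPM in ethanol replicates 1, 2 and 3. Each EPZ5676 library was below the ethanol library of the same number, while EPZ5676 replicate 1 lay just above ethanol replicate 2, so the groups overlapped. In the blocked edgeR quasi-likelihood fit Pdk1 fell by 20.1%, with a log2 fold change of -0.32 ± 0.05 (here and below ± SE) and an adjusted p of 0.0485. Without the block the log2 fold change was -0.32 ± 0.13 with an adjusted p of 0.659. The blocked call was lost without pair 1, at an adjusted p of 0.489. Without pair 2 (0.00394) or pair 3 (0.00564) the adjusted p was smaller. Each of these fits had 1 residual degree of freedom less than the 2 of the blocked fit with all pairs. Without pair 2 or pair 3, calls over all genes rose as well, as given in the last section. Those smaller values therefore add no support for Pdk1 in particular. Fibroblast markers were lower in each EPZ5676 library than in its ethanol pair, as was Pdk1, and their part in the difference was not tested. Pdk1 itself was lowest in the replicate 2 library of each group, where those markers were highest.

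The other kinases of the same step, which share between 67.0% and 69.4% of aligned coding bases with Pdk1, did not pass. Pdk3 had 83.0, 81.3 and 86.5 CPM with EPZ5676 and 96.6, 90.9 and 89.9 CPM with ethanol, with no overlap, a blocked log2 fold change of -0.14 ± 0.06 and an adjusted p of 0.258. Pdk2 averaged 9.54 ± 1.78 CPM with EPZ5676 and 9.63 ± 0.495 CPM with ethanol (n = 3, ± SD). Pdk4, the starvation-responsive form, was near the count minimum, with 2.35, 2.00 and 2.83 CPM with EPZ5676 and 1.42, 2.41 and 1.19 CPM with ethanol. Its log2 fold change of 0.51 ± 0.31 was the highest of the 37 and became 0.99 without the replicate 2 libraries, with adjusted p of 0.748 and 0.181. Per kilobase, Pdk1 made up 54.7 ± 4.11% of the summed kinase level with EPZ5676 and 58.1 ± 2.53% with ethanol (SD, n = 3), and Pdk3 40.2 ± 2.97% with EPZ5676 and 37.8 ± 2.23% with ethanol. Pdk1 and Pdk3 were thus the main kinase transcripts of these cells, and the groups overlapped in both shares.

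Of the 3 glucose transporter genes, Slc2a3, which encodes a high-affinity transporter, was lower in every pair without passing the adjusted threshold. It had 89.1, 82.0 and 74.7 CPM with EPZ5676 and 103, 91.6 and 95.6 CPM with ethanol, so the groups did not overlap. The log2 fold change was -0.24 ± 0.09, and the adjusted p was 0.645 in the unblocked and 0.117 in the blocked edgeR fit. Slc2a1 had 161, 117 and 128 CPM with EPZ5676 and 175, 93.9 and 175 CPM with ethanol. Its ethanol replicate 2 was the lowest of all 6 libraries. The log2 fold change was -0.13 ± 0.23 with all libraries and -0.28 without both replicate 2 libraries, where the adjusted p was 0.291. Slc2a4, the insulin-responsive transporter of muscle and fat, was low, with 2.14 ± 0.586 CPM with EPZ5676 and 1.91 ± 0.654 CPM with ethanol (n = 3, ± SD). Per kilobase, Slc2a1 gave 65.7 ± 3.03% of the summed transporter level with EPZ5676 and 63.3 ± 7.62% with ethanol.

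Hexokinases trap glucose inside the cell by phosphorylating it. Hk1, the form found in most tissues, had 113, 73.7 and 98.6 CPM with EPZ5676 and 126, 80.7 and 131 CPM with ethanol. It was lower in all 3 pairs, with overlap between the groups, and both replicate 2 libraries were the lowest of their group. The blocked log2 fold change was -0.23 ± 0.07 with an adjusted p of 0.155. Hk2, the inducible form, had 147, 111 and 139 CPM with EPZ5676 and 149, 115 and 162 CPM with ethanol, again lowest in replicate 2 of each group. Hk3, typical of blood cells, was below 1 CPM in each library. Hk1 and Hk2 were about level per kilobase, with Hk2 at 54.5 ± 1.85% of the hexokinase sum with EPZ5676 and 52.3 ± 2.42% with ethanol (SD, n = 3). Gpi1, the next enzyme, had 505, 423 and 442 CPM with EPZ5676 and 490.4, 463 and 465 CPM with ethanol, a log2 fold change of -0.05 ± 0.08.

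Phosphofructokinase makes the committed step, and the PFKFB enzymes make and remove the sugar bisphosphate that activates it. All 3 phosphofructokinase subunits were expressed at similar levels per kilobase, with Pfkm (muscle) at 11.6, Pfkp (platelet) at 10.6 and Pfkl (liver) at 9.39. Pfkl had 43.1, 39.1 and 29.5 CPM with EPZ5676 and 38.5, 32.1 and 27.9 CPM with ethanol. It was higher in each pair, by log2 differences of 0.16, 0.29 and 0.08, with groups that overlapped and a blocked adjusted p of 0.267 in edgeR. Pfkm and Pfkp had log2 fold changes of 0.02 ± 0.10 and -0.13 ± 0.14.

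Among the 4 PFKFB genes, Pfkfb2, the heart-type enzyme, had the smallest unadjusted p of all members without the block, 0.0164. Its levels were 51.9, 46.6 and 53.6 CPM with EPZ5676 and 43.2, 41.3 and 41.6 CPM with ethanol, with no overlap and all 3 pairs higher. The log2 fold change was 0.27 ± 0.09, and the adjusted p was 0.601 in the unblocked and 0.123 in the blocked edgeR fit. Pfkfb4, known from testis, had 4.09, 4.99 and 5.36 CPM with EPZ5676 and 6.25, 5.54 and 5.79 CPM with ethanol. Those groups did not overlap either, at a log2 fold change of -0.28 ± 0.17 and an adjusted p of 0.748. Pfkfb3, the proliferation-associated form, had 55.7, 36.7 and 44.3 CPM with EPZ5676 and 51.6, 33.9 and 57.7 CPM with ethanol, and Pfkfb1, the liver form, lay between 5.17 and 7.50 CPM in all libraries. The share of Pfkfb2 in the summed PFKFB level per kilobase was 44.2 ± 1.26% with EPZ5676 and 38.6 ± 5.15% with ethanol (SD, n = 3). Ethanol replicate 2, at 44.4%, lay within the EPZ5676 range.

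The 250 bases upstream of an annotated start are shown for Pdk1, the called gene, and for Pfkfb2, the member with the smallest unadjusted p among those that were higher. Capitals mark matches to ACGTG or GCGTG on either strand, the core letters bound by hypoxia-inducible factor. Sequences are from RefSeq on GRCm38.p6, 5′ to 3′ on the gene's strand, and that build differs from the one used for the counts. Pdk1 lies at chr2:71872974-71873223 (+ strand) and Pfkfb2 at chr1:130715822-130716071 (- strand). RefSeq lists 2 promoters for Pdk1 and 3 for Pfkfb2, of which the first listed is shown, and the matches given are for that window alone.
Pdk1: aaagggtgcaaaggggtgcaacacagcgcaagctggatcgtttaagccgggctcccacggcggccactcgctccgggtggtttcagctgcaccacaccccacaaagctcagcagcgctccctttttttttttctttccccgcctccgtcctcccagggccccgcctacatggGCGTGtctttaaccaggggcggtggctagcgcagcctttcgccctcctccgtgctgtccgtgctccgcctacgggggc
Pfkfb2: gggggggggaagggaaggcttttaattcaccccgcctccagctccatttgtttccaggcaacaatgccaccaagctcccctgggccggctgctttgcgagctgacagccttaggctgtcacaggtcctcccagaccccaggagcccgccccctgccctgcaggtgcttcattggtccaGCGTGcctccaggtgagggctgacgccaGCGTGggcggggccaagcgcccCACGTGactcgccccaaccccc
The Pdk1 window held 0 matches to ACGTG and 1 to GCGTG. The Pfkfb2 window held 2 of each, of which both ACGTG matches are the strands of the palindrome CACGTG. Over the 37 members with an entry (58 promoters, all members but Slc2a3 and Slc2a4), ACGTG occurred in 21 promoters (36.2%) and GCGTG in 28 (48.3%). Among all 32851 promoters of that length the shares were 16.6% and 28.2%. Several promoters of a gene were counted separately, and base composition was not matched. Counted by gene, 17 of the 37 members had a promoter with ACGTG and 23 had a promoter with GCGTG. No count by gene was made over all genes, so these have no background, and the shares per promoter are not one for them. A match describes letters and not a bound site.

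Aldolase and triose phosphate isomerase turn the sugar bisphosphate into triose phosphates. Aldoa, the main aldolase, had 585, 557 and 438 CPM with EPZ5676 and 530.4, 585 and 457 CPM with ethanol, and a log2 fold change of 0.01 ± 0.13. Aldoc, the brain form, had 68.6, 59.9 and 62.4 CPM with EPZ5676 and 78.5, 63.3 and 76.3 CPM with ethanol. It was lower in all 3 pairs at a blocked log2 fold change of -0.19 ± 0.07 and an adjusted p of 0.204, with groups that overlapped. Aldoa made up 90.5 ± 1.27% of their summed level per kilobase with EPZ5676 and 89.2 ± 2.07% with ethanol. Tpi1 had 89.9, 94.7 and 70.8 CPM with EPZ5676 and 95.5, 96.9 and 77.1 CPM with ethanol.

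In the steps from glyceraldehyde phosphate to pyruvate, which return ATP, 8 of 10 members were tested and 0 were called. Pkm had 1015, 944 and 864 CPM with EPZ5676 and 1064, 1008 and 1009 CPM with ethanol. It was lower in each pair, but EPZ5676 replicate 1 lay above ethanol replicates 2 and 3. The log2 fold change was -0.13 ± 0.07, and the adjusted p was 0.745 in the unblocked and 0.284 in the blocked fit. Gene counts do not separate the Pkm splice forms. Eno3, the muscle enolase, had 14.7, 15.0 and 14.1 CPM with EPZ5676 and 11, 14.1 and 11.2 CPM with ethanol. EPZ5676 replicate 3 and ethanol replicate 2 nearly met, and the blocked adjusted p was 0.238 at a log2 fold change of 0.28 ± 0.11. Gapdh had 4.09, 5.70 and 2.78 CPM with EPZ5676 and 3.2, 6.05 and 4.56 CPM with ethanol, and Pgk1 5.47, 4.92 and 5.65 CPM with EPZ5676 and 5.08, 7.34 and 4.79 CPM with ethanol. Pgam1 averaged 25.0 ± 3.50 CPM with EPZ5676 and 25.0 ± 5.48 CPM with ethanol (n = 3, ± SD). Pgam2 and Eno2, the muscle mutase and the neuronal enolase, averaged at most 1.56 and 4.22 CPM in a group and were highest in replicate 2 of each group.

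Testis forms of glycolytic enzymes were low in these cultures, while that of the pyruvate dehydrogenase alpha subunit, described below, was not. Gapdhs, the sperm glyceraldehyde phosphate dehydrogenase, had 4.91, 4.64 and 4.58 CPM with EPZ5676 and 4.93, 5.54 and 5.22 CPM with ethanol. The groups were separated only by the gap of 4.91 to 4.93 CPM, and the log2 fold change was -0.15 ± 0.16 with an adjusted p of 0.861. Per kilobase Gapdhs stood at 3.10 and Gapdh at 2.94, a comparison touched by the shared sequence of Gapdh. Pgk2, the retrogene form of Pgk1, had 3, 7 and 3 counts in EPZ5676 replicates 1, 2 and 3 and 1, 1 and 2 counts in ethanol replicates 1, 2 and 3. Eno1 had 4, 12 and 3 counts with EPZ5676 and 2, 1 and 2 counts with ethanol. EPZ5676 replicate 2 was the deepest library, and counts this small allow no statement on a difference. Ldhc, the sperm lactate dehydrogenase, had 9.97, 10.1 and 12.3 CPM with EPZ5676 and 9.86, 8.29 and 10.4 CPM with ethanol, a log2 fold change of 0.18 ± 0.15 with an adjusted p of 0.829. The aldolase retrogenes Aldoart1 and Aldoart2 averaged 2.33 ± 0.805 and 0.511 ± 0.280 CPM with EPZ5676, and 2.19 ± 0.106 and 0.515 ± 0.432 CPM with ethanol (n = 3, ± SD). Summed markers of round spermatids and later stages, 7 of 14 at a mean of at least 1 CPM, were 68.7 to 79.6 CPM with EPZ5676 and 63.9 to 78.1 CPM with ethanol. Those of meiotic prophase, 10 of 10 at a mean of at least 1 CPM, summed to 808 to 984 CPM with EPZ5676 and 786 to 913 CPM with ethanol. Markers of differentiating spermatogonia, 6 of 6 at that mean, summed to 793 to 946 CPM with EPZ5676 and 773 to 933 CPM with ethanol. The part of such cells in the levels of the testis forms was not tested.

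Pdha2, the intronless testis form of the alpha subunit of pyruvate dehydrogenase, is not among the 39 genes and was read from a list of further pyruvate genes as the partner of Pdha1. Its levels were 55.1, 49.9 and 55.5 CPM with EPZ5676 and 45.1, 37.1 and 40.4 CPM with ethanol, with no overlap and all 3 pairs higher. The log2 fold change was 0.39 ± 0.10, with an unadjusted p of 0.00474 and an adjusted p of 0.596 in edgeR. With the block the adjusted p was 0.0518, just outside the threshold, and DESeq2 gave 0.0142 with the block and 0.168 without it. In the blocked edgeR fit the adjusted p was 0.468 without pair 1, 0.0142 without pair 2 and 0.0264 without pair 3. Calls over all genes rose as well without pair 2 or pair 3. Pdha1, its somatic partner on the X chromosome, had 78.1, 74.2 and 73.2 CPM with EPZ5676 and 71.5, 69.8 and 74.0 CPM with ethanol, a log2 fold change of 0.07 ± 0.08. Pdha2 therefore gave 46.1%, 44.9% and 47.9% of the summed alpha subunit level per kilobase with EPZ5676, and 43.3%, 39.1% and 39.8% with ethanol. The means were 46.3 ± 1.5% with EPZ5676 and 40.8 ± 2.22% with ethanol (SD, n = 3), and the shares did not overlap. No test was made of a share. Pdhb had 98.3, 101 and 106 CPM with EPZ5676 and 105, 102 and 109 CPM with ethanol. Reads can tell the 2 alpha forms apart. Over 1170 aligned coding bases, 75.6% were identical, and no 75-base stretch of either was found at another annotated locus. A stretch of 90 bases near the start of each coding sequence is shown to make this visible, bases 28 to 117 of Pdha2 (chromosome 3) and 25 to 114 of Pdha1 (chromosome X). Capitals mark the 37 bases that differ.
Pdha2: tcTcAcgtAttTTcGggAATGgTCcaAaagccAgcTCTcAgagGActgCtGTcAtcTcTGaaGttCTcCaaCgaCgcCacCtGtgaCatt
Pdha1: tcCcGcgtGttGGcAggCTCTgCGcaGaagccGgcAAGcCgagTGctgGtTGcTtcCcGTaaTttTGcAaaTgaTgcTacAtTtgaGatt

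The other testis forms were also distinct in sequence. Coding bases were identical at 79.3% of aligned positions between Pgk2 and Pgk1, 72.3% between Gapdhs and Gapdh, and 73.7% between Ldhc and Ldha. None of the 75-base stretches of Pgk2, Gapdhs or Ldhc occurred at another locus.

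**Figure D4:**
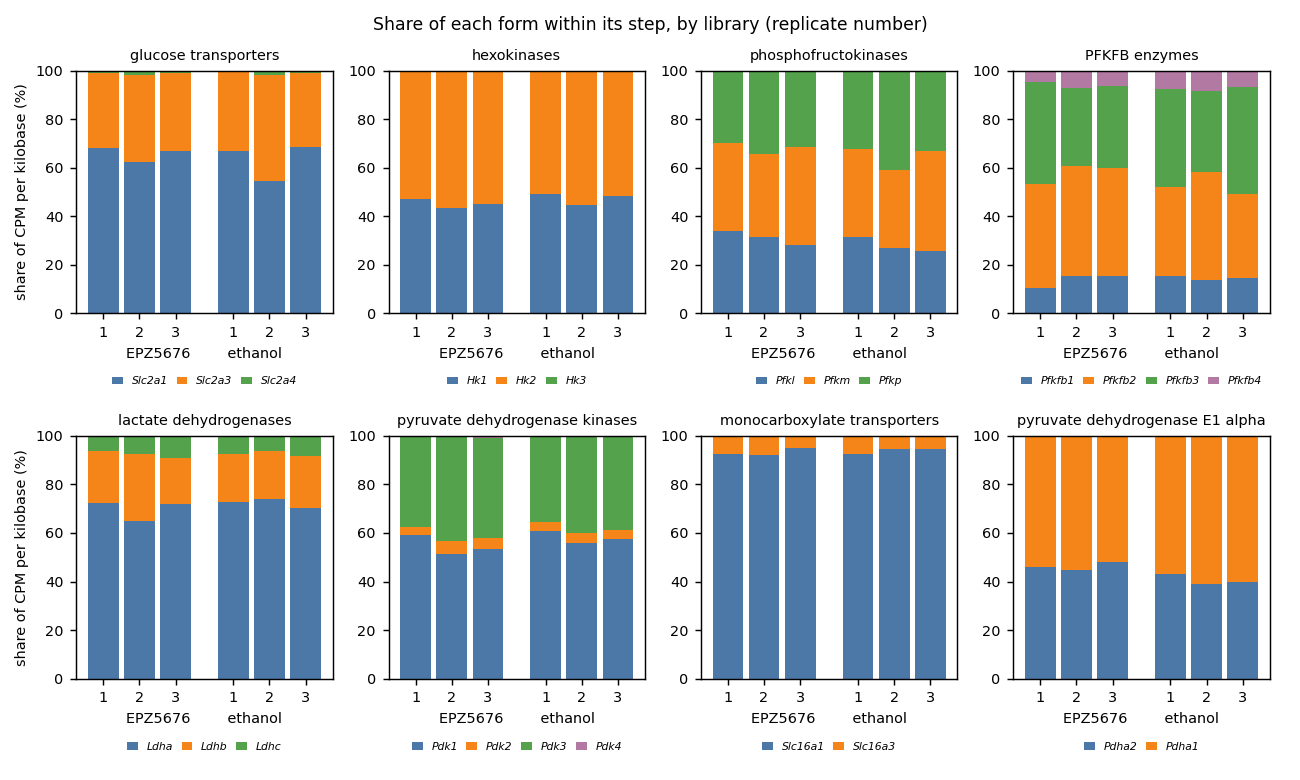
Share of each gene in the summed CPM per kilobase of its step, in percent, for EPZ5676 replicates 1 to 3 (left) and ethanol replicates 1 to 3 (right) of each panel. The Pdha2 share is higher in each EPZ5676 library (44.9% to 47.9%) than in any ethanol library (39.1% to 43.3%), and the shares of most other forms overlap between groups.

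Lactate dehydrogenase interconverts pyruvate and lactate, and monocarboxylate transporters carry both across the membrane. Ldha, the muscle subunit, had 159.5, 119.5 and 134 CPM with EPZ5676 and 136, 139.6 and 122 CPM with ethanol, a log2 fold change of 0.05 ± 0.11. Ldhb, the heart subunit, had 32.5, 34.7 and 24 CPM with EPZ5676 and 25.6, 26.1 and 25.7 CPM with ethanol. EPZ5676 replicate 3 was below all ethanol libraries and the other EPZ5676 libraries above them. The log2 fold change was 0.24 ± 0.14 with all libraries and 0.38 in the blocked fit without pair 3, where the adjusted p was 0.0383. That fit also called more of all genes than the blocked fit with every pair. Per kilobase the lactate dehydrogenase sum was 69.8 ± 4.18% Ldha, 22.5 ± 4.45% Ldhb and 7.68 ± 1.46% Ldhc with EPZ5676, and 72.3 ± 1.86%, 20.5 ± 0.857% and 7.21 ± 1.11% with ethanol (SD, n = 3). Slc16a1, the main monocarboxylate transporter, had 153, 150.4 and 161 CPM with EPZ5676 and 144, 173 and 155 CPM with ethanol, and made up 93.1 ± 1.65% of the transporter sum with EPZ5676 and 93.9 ± 1.19% with ethanol. Slc16a3, the lactate exporter of glycolytic muscle, averaged 11.5 ± 2.59 CPM with EPZ5676 and 10.1 ± 1.46 CPM with ethanol. Bsg encodes basigin, the chaperone that brings these transporters to the membrane. It had 299.7, 309 and 276 CPM with EPZ5676 and 263, 274 and 235 CPM with ethanol, with no overlap, a log2 fold change of 0.20 ± 0.08 and a blocked adjusted p of 0.114.

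**Figure D5:**
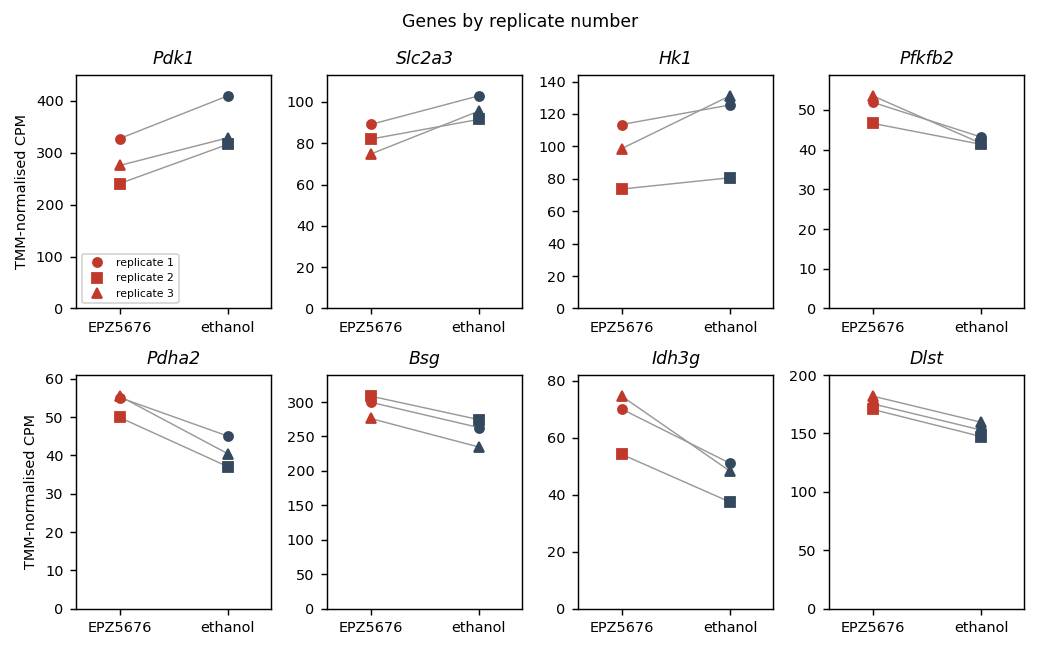
TMM-normalised CPM of 8 genes in each library, with EPZ5676 left and ethanol right in each panel and lines joining libraries of the same replicate number. In the upper row Pdk1, Slc2a3 and Hk1 are lower and Pfkfb2 is higher with EPZ5676 in all 3 pairs, and in the lower row Pdha2, Bsg, Idh3g and Dlst are higher in all 3. With the block, Pdk1 and Idh3g were called.

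Hif1a had 119, 114 and 137 CPM with EPZ5676 and 113, 122 and 119 CPM with ethanol. Its log2 fold change was 0.06 ± 0.09 with an adjusted p of 0.902, and the direction differed between pairs (0.07, -0.10 and 0.20). Of 11 regulators and partners of hypoxia-inducible factor, 1 was called in the blocked edgeR fit, against 0.323% of all genes called higher. With an unadjusted p below 0.05 in that fit, 2 were higher (Arnt2 and Egln3) and 1 lower (Epas1), beside 9.01% and 9.51% of all genes. The called gene, Arnt2, encodes a dimerisation partner. It had 32.6, 22.4 and 33.8 CPM with EPZ5676 and 18.4, 13.7 and 18.4 CPM with ethanol, and it rose in each pair, at a blocked log2 fold change of 0.81 ± 0.09 and an adjusted p of 0.0173. Egln3, a prolyl hydroxylase that marks the factor for destruction, had a blocked log2 fold change of 0.24 ± 0.09 and an adjusted p of 0.223. Unblocked, its value of 0.21 became -0.0051 without ethanol replicate 2 and 0.38 without EPZ5676 replicate 2. Of 25 targets outside glycolysis, 1 was called with the block, against 0.33% of all genes called lower, and 1 was higher (Egln3) and 5 lower (Ndrg1, Ero1l, Higd1a, Bhlhe41 and Rora) with an unadjusted p below 0.05. The called gene was Rora, a nuclear receptor gene. It fell to 23.0, 26.0 and 26.9 CPM with EPZ5676, against 36.4, 35.1 and 35.7 CPM with ethanol, with a blocked log2 fold change of -0.50 ± 0.09 and an adjusted p of 0.0499. Bhlhe41, a repressor gene of the circadian clock, had 16.7, 16.5 and 16.6 CPM with EPZ5676 and 22, 23.2 and 18.1 CPM with ethanol, at a blocked adjusted p of 0.151. The median log2 fold change was -0.09 over the targets and 0.09 over the regulators, beside -0.01 over all genes. Without both replicate 2 libraries the median of the targets was 0.00168. The Arnt2 and Rora calls were lost in the unblocked edgeR fit, at adjusted p of 0.532 and 0.454, and in the blocked fit without pair 1, at 0.365 and 0.507. Unblocked DESeq2 called both, at adjusted p of 0.0231 and 0.0164.

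Downstream of pyruvate, the tricarboxylic acid cycle oxidises the acetyl group. Of its 18 listed genes, all tested, 1 was called in the blocked edgeR fit, against 0.323% of all genes called higher and 0.33% lower. Idh3g, which encodes a regulatory subunit of the NAD-linked isocitrate dehydrogenase, had 70.0, 54.1 and 74.6 CPM with EPZ5676 and 51.0, 37.4 and 48.2 CPM with ethanol. Its groups did not overlap, the fold change was the largest of the 18, and it rose by a log2 fold change of 0.54 ± 0.07 with an adjusted p of 0.0267. The call was lost without the block (adjusted p of 0.596) and without pair 1 (0.404). In the blocked fit, 6 of the 18 were higher, Idh3g and Dlst among them, and 1 lower (Aco1) with an unadjusted p below 0.05, against 9.01% and 9.51% of all genes. Dlst, the transferase subunit of the oxoglutarate dehydrogenase complex, had 175, 171 and 182 CPM with EPZ5676 and 153, 147 and 159.6 CPM with ethanol. Those groups did not overlap, and the blocked adjusted p was 0.112 at a log2 fold change of 0.20 ± 0.05. Over the 18 the median was 0.06 on the log2 scale, 12 positive and 6 negative, and without both replicate 2 libraries 0.04, 9 of each sign.

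Other genes around glycolysis gave 0 calls in either edgeR fit. Of 26 tested genes on the list of further glycolysis genes, 2 were higher (Adpgk and Minpp1) and 3 lower (Pgm2, Tigar and Gpd1) with an unadjusted p below 0.05 in the blocked fit. The background for this count and those of the next lists was 9.01% of all genes higher and 9.51% lower. Pgm2, a phosphoglucomutase, had 176, 137 and 159.6 CPM with EPZ5676 and 197, 155 and 196 CPM with ethanol, at a blocked adjusted p of 0.112. Tigar, a phosphatase that diverts sugar from glycolysis, had 82.4, 77.0 and 82.4 CPM with EPZ5676 and 94.9, 85.4 and 103 CPM with ethanol, with no overlap and a blocked adjusted p of 0.129. Of 22 tested genes on the list of further pyruvate genes, 4 were higher (Pdha2, Pdpr, Bsg and Mdh2) and 2 lower (Mpc2 and Gpt2) at that level. Mpc1, a subunit of the mitochondrial pyruvate carrier, had 0.286 ± 0.194 CPM with EPZ5676 and 0.201 ± 0.0777 CPM with ethanol and was not tested, while Mpc2, its partner, averaged 87.0 ± 12.1 CPM with EPZ5676 and 96.6 ± 15.3 CPM with ethanol. Among the 12 pentose phosphate genes, 3 were higher (Pgls, Tktl2 and Prps1) and 0 lower at that level in the blocked fit. In the unblocked fit 1 was higher (Tktl2) and 0 lower, against 3.84% and 3.57% of all genes in that fit. Tktl2, a transketolase-like gene, had 4.76, 3.21 and 4.97 CPM with EPZ5676 and 3.0, 2.07 and 3.13 CPM with ethanol, and in the blocked fit its log2 fold change was 0.65 ± 0.16 with an adjusted p of 0.105. Prps1, which makes the ribose donor of nucleotide synthesis, had a blocked log2 fold change of 0.16 ± 0.065 and an adjusted p of 0.247, while its unblocked value of 0.15 became 0.026 without ethanol replicate 2 and 0.26 without EPZ5676 replicate 2. Median log2 fold changes without the block were 0.01 for the further glycolysis genes, -0.07 for the further pyruvate genes and 0.02 for the pentose phosphate genes. With the block they were -0.05, -0.07 and 0.01, so that of the further glycolysis genes changed sign.

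Replicate 2 differed from its group for several of these genes by more than EPZ5676 differed from ethanol. Relative to the mean of replicates 1 and 3 on the log2 scale, replicate 2 stood at -0.30 with EPZ5676 and -0.90 with ethanol for Slc2a1. In the same order Pfkfb3 was at -0.45 and -0.69, Hk1 at -0.53 and -0.67, and Pgam1 at -0.37 and -0.59. Pgam2 stood at 0.88 and 1.22, Gapdh at 0.73 and 0.64, and Eno2 at 0.69 and 0.52. Without both replicate 2 libraries, the unblocked edgeR test called 0 of the 37 genes, where 0.0405% of all genes were called higher and 0.027% lower. At an unadjusted p under 0.05 it then gave 3 members higher (Pfkfb2, Eno3 and Pdk4) and 5 lower (Slc2a1, Slc2a3, Hk1, Aldoc and Pdk1), against 6.77% and 7.18% of all genes.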

How the data were processed

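RNA was measured in 6 libraries, 3 given EPZ5676 and 3 given ethanol, made per the labels' protocols with TRIzol and a stranded poly(A) mRNA kit. The table the authors deposited gives raw, unnormalised counts for each symbol. The submitters' processing notes name mm9, STAR, featureCounts, edgeR and Bowtie, without versions or settings. Which annotation and strand setting were used, and how multi-mapping reads were handled, is not given in the sources used here. A deposited table of repeat families was not used.

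Counts were tested as deposited in R 4.3.3 with edgeR 4.0.16 (filterByExpr, TMM, quasi-likelihood test, 2-sided, Benjamini-Hochberg over all 14855 genes, threshold 0.05), without blocking. limma 3.58.1 and DESeq2 1.42.0 served as alternatives. CPM are TMM-normalised, given with the SD of 3 libraries, and ± after a log2 fold change is its SE. Exon lengths and shared 75-base stretches come from GENCODE M21 (GRCm38), not from mm9, and coding sequences were aligned with Biopython 1.88. Depth per library was 17784332 counts or more. Every pair of libraries differed beyond counting noise, with a chi-square per degree of freedom of 3.64 or more.

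Deviations from the group mean correlated at 0.41, 0.61 and 0.34 for libraries numbered 1, 2 and 3, all above the bound of 0.1. The numbers were therefore treated as pairs and a fit with replicate block was added. Across numbers, replicates 1 and 3 exceeded the bound as well, at 0.28 for the EPZ5676 library numbered 1 and 0.15 for the one numbered 3, and no label says what a number means. Residual degrees of freedom were 4 unblocked, 2 blocked and 1 blocked with a pair left out.

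The members and lists were chosen with earlier results of these data known. All 39 members are named. Values in every library are given for members at an unadjusted p under 0.05 in either fit, for the highest of each step and for testis forms. From each further list, called genes and the 2 with the smallest blocked p are named. Other genes are named beside small counts, or were chosen after their values were seen. An item of one list is not reported here.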

Additional observations from a re-analysis of the deposited data

How the results depend on the processing

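The count of members called stayed at 0 under another scaling, another filter, DESeq2 or limma-voom without the block, and without any single library. It was 1 with the replicate block, with DESeq2 and the block, and with library totals and the block, an alternative chosen after seeing the data, and that member was Pdk1 each time. In the blocked fit it was 0 without pair 1. It was 5 without pair 2 (Slc2a1, Slc2a3, Hk1 and Pdk1 lower, Pfkfb2 higher) and 2 without pair 3 (Ldhb higher, Pdk1 lower). Calls over all genes, given next, rose without pair 2 or pair 3 as well, so these counts are not read as a result about the members. Over all genes the calls numbered 0 without the block, 97 with it, 50 in DESeq2, 293 in DESeq2 with the block, 193 with library totals and the block, 10 without replicate 2 of either group, and 0, 795 and 761 in the blocked fit without pair 1, 2 or 3. The median log2 fold change of the members stayed between -0.06 and 0.004. The cause of these differences was not tested. Shares without division by length were 6.11% with EPZ5676 and 5.70% with ethanol for Ldhc, 41.6% and 36.2% for Pdha2, and 74.4% and 77.0% for Pdk1.

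Alternatives were compared with the unblocked edgeR fit, which called 0 members, so no call could be lost. Of 702 log2 fold changes of members under alternatives, 626 kept direction and side of the threshold, 10 passed it newly and 66 changed sign. Among members that changed sign when 1 library at a time was left out, the ranges were -0.38 to 0.0085 for Slc2a1, -0.085 to 0.44 for Slc2a4, -0.24 to 0.0092 for Hk2, -0.014 to 0.62 for Hk3, -0.13 to 0.0028 for Gpi1, -0.042 to 0.062 for Pfkm, -0.23 to 0.0042 for Pfkp, -0.19 to 0.076 for Pfkfb1, -0.27 to 0.088 for Pfkfb3 and -0.082 to 0.12 for Aldoa. They were -0.17 to 0.038 for Tpi1, -0.42 to 0.13 for Gapdh, -0.22 to 0.10 for Pgk1, -0.18 to 0.11 for Pgam1, -0.43 to 0.49 for Pgam2, -0.23 to 0.26 for Eno2, -0.069 to 0.14 for Ldha, -0.083 to 0.048 for Slc16a1, -0.13 to 0.13 for Pdk2 and -0.022 to 0.12 for Hif1a. Other changes of sign were as follows. The blocked value of Pgam1 was 0.016 in edgeR and 0.017 in DESeq2. Blocked values without pair 1 were 0.18 for Pfkfb1, -0.065 for Aldoa, 0.075 for Pgam1, -0.049 for Ldha and 0.17 for Pdk2. Without pair 2 they were -0.017 for Pfkm, 0.17 for Pgk1, 0.087 for Pgam2, -0.038 for Eno2 and 0.073 for Slc16a1, and without pair 3 0.099 for Slc2a1, 0.11 for Pfkfb3, 0.098 for Gapdh, 0.033 for Pgam1 and -0.015 for Hif1a. Without replicate 2 of either group and no block they were -0.016 for Pfkm, 0.17 for Pgk1, 0.085 for Pgam2, -0.038 for Eno2 and 0.072 for Slc16a1. With library totals Aldoa was at -0.0047, and with the block added Aldoa was at -0.0087 and Pgam1 at 0.0041. With no filter Pgam1 was at 0.0050 and Pdk2 at 0.0040, and in limma-voom Pgam2 was at 0.12 and Pdk2 at 0.018. Counts of 12 or fewer per library for Pgk2 and Eno1, and of 38 or fewer for Hk3, limit what can be said of them.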
